A study of Rattus norvegicus with 12 samples.

Results

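The mammalian circadian clock is built from a small set of transcription factors that run a feedback loop in nearly every cell. ARNTL (also called BMAL1) pairs with CLOCK or with its relative NPAS2, and the pair binds E-box elements and switches on the Per and Cry genes, whose proteins return to the nucleus and block it. The same pair switches on Nr1d1, which encodes the repressor REV-ERBα and shuts Arntl down through RORE elements, and Dbp, an output factor that acts on D-box elements. In fat, as in liver, transcripts of Arntl and of targets such as Nr1d1 and Dbp are abundant at roughly opposite times of day. This does not hold alike for every target. The clock also times lipid storage and release.

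The 10 core clock genes Arntl, Clock, Npas2, Per1, Per2, Per3, Cry1, Cry2, Nr1d1 and Dbp were followed in epididymal adipocytes, out of 26511 genes named on the array. Every probe whose gene name was one of the 10 was taken, which gave 17 probes of 60 bases, and 5 of the genes had several probes. The genes were chosen with their difference between the groups already known, so their differences are given as a description, and the calls below only sort the probes into higher, lower and not called and are no evidence of a change. The first group had 6 male Fisher rats after chronic unpredictable stress (CUS), which received 2 stressors a day in random order for 35 days, and the second had 6 control rats that were handled every 2 days. Both groups were about 12 weeks old when purchased and were kept on a light-dark cycle. RNA of each rat was read on 1 array. The source label and the study's methods call the cells adipocytes, while the extraction protocol in the labels names preadipocytes, and all 8 adipocyte markers examined (Adipoq, Plin1, Lep and Fabp4 among them) were well above background on all 12 arrays.

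Part of the CUS schedule acted on the cues that set the clock. Lights stayed on overnight on 8 days, the last of them day 23. They were switched off for 3 hours within the day on 9 days, up to day 31. A stroboscope ran overnight on 12 days, up to day 35, and food or water was withheld overnight on 11 days, up to day 32. The hour at which each rat was killed is not given in the sources used here, so the time of day of collection and the stress itself cannot be told apart in any difference between the groups. All 6 CUS arrays lay on 1 slide and all 6 control arrays on the other, so slide and group cannot be told apart either.

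The oligonucleotides show which stretch of each transcript was read. Those of the activators are printed because the comparison with a gene they drive rests on their brightest probes. The Per1 probe is printed for the contrast with Cry1, and those of Per3 because its probes disagreed. For Dbp the dimmer probes are printed. The comparison used its brightest probe, A_64_P017188, whose sequence is not shown. Sequences run 5′ to 3′ as on the array, whole or as the first 30 bases, and capitals mark the 10 bases on either side of the point where a pair of Per3 probes meet.
Arntl A_44_P214873, first 30 bases: tgaagttttacagtctgtgaagcttactgg
Arntl A_64_P117345: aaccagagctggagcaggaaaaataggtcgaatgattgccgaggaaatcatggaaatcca
Clock A_64_P147863: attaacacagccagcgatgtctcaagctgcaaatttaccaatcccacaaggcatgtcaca
Npas2 A_44_P945456, first 30 bases: gcaaagcacaatctcacaatgattccgaat
Npas2 A_64_P024222: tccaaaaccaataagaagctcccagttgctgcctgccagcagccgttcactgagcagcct
Per1 A_64_P300243: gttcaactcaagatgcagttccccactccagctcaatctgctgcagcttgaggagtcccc
Per3 A_64_P119405: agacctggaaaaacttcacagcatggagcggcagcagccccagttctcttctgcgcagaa
Per3 A_64_P127337: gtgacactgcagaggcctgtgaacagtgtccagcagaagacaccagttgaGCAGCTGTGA
Per3 A_64_P119407, first 30 bases: AGATGTCCCAccctctccaggtcatgtgga
Dbp A_64_P049828: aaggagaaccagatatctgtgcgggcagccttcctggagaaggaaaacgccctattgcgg
Dbp A_64_P049827: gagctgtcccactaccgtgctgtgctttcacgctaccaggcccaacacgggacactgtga

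On rat build rn4, the Arntl probes lie at chr1:171161969-171162028 and chr1:171154767-171154826 on the plus strand, in the order printed. The Clock probe lies at chr14:34243744-34243803 (plus strand) and the Npas2 probes at chr9:38433884-38433943 and chr9:38417496-38417555 (plus strand). Per1 was read at chr10:55866200-55866259 (plus strand), and the printed Dbp probes at chr1:96178064-96178123 and chr1:96178148-96178207 (plus strand). The brightest Dbp probe, A_64_P017188, followed them at chr1:96178423-96178482.

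Levels below are log2 intensities relative to the 75th percentile of the array, so that 0 is that percentile and 1 unit is a factor of 2. They place a gene among the other genes of the same array, and a level of one probe cannot be set against that of another. A probe entered the test when at least 6 of 12 arrays read it well above background, which held for 16 of the 17, and for 15 of them on all 12 arrays. It was called when its limma p, adjusted by the Benjamini-Hochberg method over all 19721 tested probes, was under 0.05. Of the 16 probes, 6 were called higher in CUS, 7 lower and 3 neither, where 50.1% of all tested probes were called. Per3 probe A_64_P127337, counted as higher, met the filter through the CUS arrays, being well above background on 1 control array. By the brightest probe of each gene, Cry1 and Dbp were higher in CUS, Arntl, Clock, Npas2, Per1 and Per3 were lower, and Per2, Cry2 and Nr1d1 were not called. The groups differed widely over the whole array, since 24.1% of 17405 genes were called higher and 25.9% lower, and nothing is read from the count of 7 of 10 clock genes. The 6 CUS and 6 control values did not overlap for 6 of the 10, against 22.0% of all genes. The median difference of the 10 genes was -0.36, against -0.026 over all genes. The genes were chosen with this contrast known, so nothing is read from the overlap or the median either. The scale matters for these directions. Intensity at the 75th percentile was 541 to 627 in CUS and 230 to 400 in controls, so a signal of equal intensity in both groups reads lower in CUS. The probe of Rorb, a clock gene outside the 10, was well above background on no array. It still read lower in CUS by -0.76 without overlap, more than Clock, Per1 or the brightest Per3 probe. With spike-in probes in place of the 75th percentile, the median probe of the array moved by 0.84 in place of -0.019, and Clock, Per1 and the brightest Per3 probe took a positive sign, while Per2, Cry2 and Nr1d1 were called higher.

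**Figure D1:**
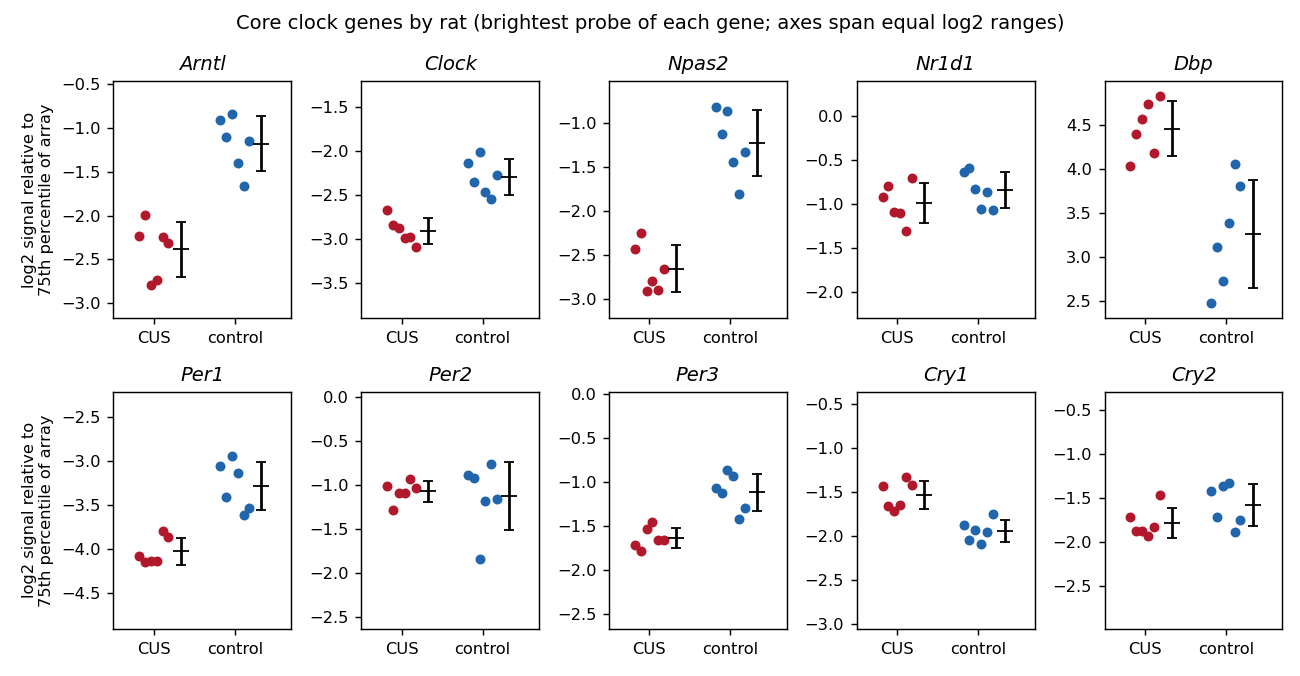
Each panel plots 1 core clock gene, with the log2 signal of its brightest probe relative to the 75th percentile of the array on the vertical axis (each spanning the same number of log2 units), 6 CUS rats (red) left of 6 control rats (blue), and the mean with its SD in black. Arntl, Clock, Npas2, Per1, Per3 and Cry1 do not overlap between the groups, while Dbp overlaps at 1 CUS rat and 1 control rat.

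Among the activators, Arntl, whose protein pairs with both CLOCK and NPAS2, stood lower in all 6 CUS rats than in any control. Its brighter probe read -2.23, -1.997, -2.79, -2.73, -2.24 and -2.31 in CUS rats 1 to 6, against -0.91, -1.11, -0.85, -1.40, -1.67 and -1.15 in control rats 1 to 6. The difference was -1.20 ± 0.17 (SE), or 2.30-fold lower in CUS. The second Arntl probe, 471 bases nearer the start of the transcript, read -5.33 to -4.42 in CUS and -4.23 to -3.33 in controls, again without overlap, with a difference of -1.03 ± 0.19. On the spike-in scale the brighter probe differed by -0.35 and was not called.

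Npas2, which can take the place of CLOCK in the complex, had the lowest difference of the 10 genes. Its brighter probe read -2.43, -2.24, -2.91, -2.79, -2.90 and -2.66 in CUS rats, against -0.81, -1.12, -0.86, -1.45, -1.80 and -1.33 in controls. All CUS rats lay below all controls, at -1.43 ± 0.18 (SE) or 2.69-fold lower in CUS, and this call stood under every alternative run on it. The second Npas2 probe, 1415 bases nearer the start of the transcript, gave a smaller difference. It read -3.07 to -2.70 in CUS and -2.89 to -1.98 in controls, which overlapped, with a difference of -0.45 ± 0.16, and its call was lost with quantile normalization (-0.26), with the deposited value table (-0.27) and when CUS replicate 3 or 5 or control replicate 1, 3 or 4 was left out (-0.44 to -0.36), and its sign turned on the spike-in scale (0.41).

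Clock, the other partner of ARNTL and itself an acetyltransferase, had the narrowest spread of the activators. Values were -2.67, -2.84, -2.87, -2.99, -2.98 and -3.09 in CUS rats and -2.13, -2.35, -2.01, -2.47, -2.55 and -2.27 in controls. The groups did not overlap, and the difference was -0.61 ± 0.11 (SE), 1.53-fold lower in CUS, or 0.24 in the opposite direction and not called on the spike-in scale. A second Clock probe (A_64_P075337) was well above background on only 2 CUS arrays and no control array, and was not tested.

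The PER proteins are the inhibitors of the loop, and the 3 Per genes did not move together. Per1, which is also induced by glucocorticoids and by light in the brain clock, read -4.08, -4.14, -4.13, -4.14, -3.80 and -3.86 in CUS rats, against -3.06, -3.41, -2.94, -3.13, -3.62 and -3.53 in controls. CUS lay below control throughout, by -0.74 ± 0.13 (SE) or 1.68-fold, and the sign turned to 0.11 on the spike-in scale. The undetected Rorb probe also lay lower in CUS without overlap, by -0.76, relative to the array's upper percentile. Of 6 other glucocorticoid-induced genes, Dusp1, a MAP kinase phosphatase, was higher in CUS (1.50 ± 0.17, adjusted p = 3.66e-05 by limma). Klf9 was lower (-0.51 ± 0.14, adjusted p = 0.00863 by limma), and Fkbp5, Tsc22d3, Zbtb16 and Sgk1 were not called. This list was also chosen with earlier results of these data known, so its values are a description.

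Per2 read -1.01, -1.28, -1.09, -1.09, -0.93 and -1.04 in CUS rats, against -0.88, -0.92, -1.84, -1.18, -0.76 and -1.16 in controls. The CUS values fell inside the control range, and the difference was 0.05 ± 0.16 (SE). Control rat 3 was the lowest of all 12. Among controls it also had the lowest mean level of endothelial, smooth muscle, mast cell, macrophage and red blood cell markers. The same held for mesothelial and neutrophil markers and for genes induced by tissue dissociation. This rat had the highest mean level of adipocyte markers (4.07) among controls. Without it, the CUS minus control difference of Per2 was -0.092, the lowest of the values with 1 rat left out, and Per2 was still not called, while on the spike-in scale the difference was 0.90 and was called higher.

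Per3 gave opposite answers by probe. Its brightest probe, A_64_P119407, read -1.72, -1.78, -1.54, -1.46, -1.66 and -1.66 in CUS rats, against -1.07, -1.12, -0.86, -0.93, -1.42 and -1.30 in controls, which put CUS lower without overlap (-0.52 ± 0.11, SE). The probe A_64_P127337 ends at transcript base 3357 and A_64_P119407 begins at base 3358, so that 0 bases lie between them (chr5:168152839-168152898 and chr5:168152779-168152838, minus strand, rn4). Yet A_64_P127337 read -4.62, -4.47, -3.99, -3.88, -4.09 and -4.06 in CUS rats, against -6.33, -5.14, -4.79, -4.83, -4.72 and -5.71 in controls, which put CUS higher without overlap (1.07 ± 0.26). It was dim, being well above background on 6 CUS arrays but 1 control array. It thus met the filter of 6 arrays through the group where it read higher, with most control values near background. No direction is read from its call or from its lack of overlap. The third probe, A_64_P119405 (chr5:168155353-168155412, minus strand), was higher in CUS by 0.36 ± 0.14 with overlap, at -3.55 to -2.83 in CUS and -3.73 to -3.18 in controls, a call that 11 of the alternatives removed.

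With normexp background correction, the 2 dimmer Per3 probes turned to -0.26 (A_64_P127337) and -0.19 (A_64_P119405), the sign of the brightest one, while the brightest turned to 0.33 with spike-in scaling. Across 12 arrays centred on their group means, the 3 Per3 probes correlated at only 0.24 to 0.36. Of 2118 genes with several tested probes, 3.12% had probes called in opposite directions. Per3 is counted as lower by its brightest probe alone, and no single direction is given for the gene.

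**Figure D2:**
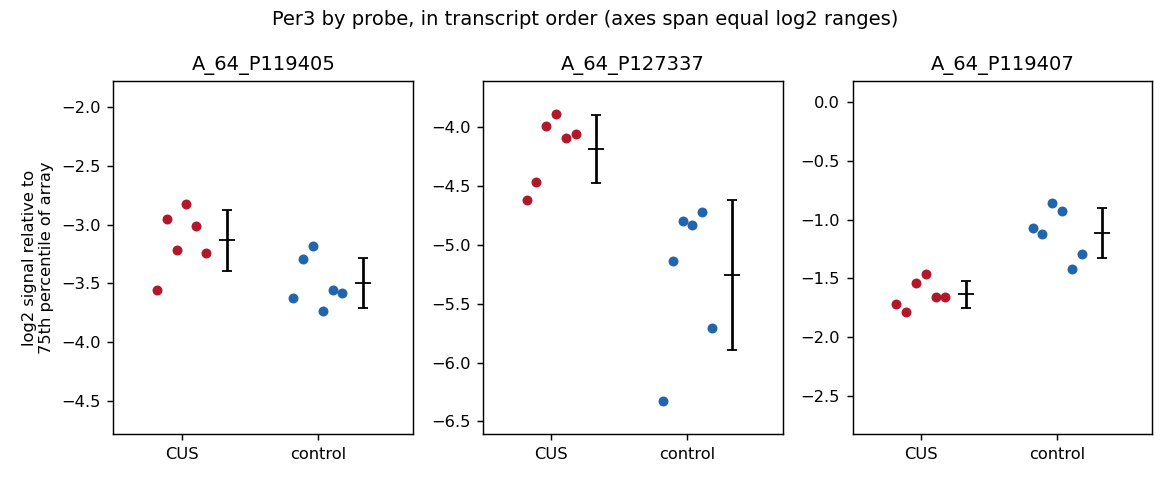
The 3 Per3 probes are plotted in transcript order, with log2 signal relative to the 75th percentile of the array on the vertical axis, CUS rats (red) left of control rats (blue) and the mean with its SD in black. The left and middle probes are higher in CUS and the right one is lower, although the middle and right probes meet end to end on the transcript. The middle probe was well above background on only 1 control array.

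The CRY proteins carry the main repressor activity of the loop. Cry1 was higher in CUS, with -1.43, -1.65, -1.71, -1.64, -1.33 and -1.42 in CUS rats and -1.88, -2.05, -1.93, -2.08, -1.95 and -1.74 in controls. The groups did not overlap but lay close, and the difference was 0.41 ± 0.093 (SE), or 1.33-fold, falling to 0.12 and not called with normexp background correction. Cry2 read -1.93 to -1.46 in CUS and -1.89 to -1.33 in controls, with a difference of -0.20 ± 0.12 and no call, but it was called higher on the spike-in scale (0.65) and lower with normexp (-0.26).

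Nr1d1 encodes the repressor that acts on the Arntl promoter. It read -0.93, -0.80, -1.09, -1.10, -1.32 and -0.71 in CUS rats, against -0.64, -0.59, -0.83, -1.06, -0.87 and -1.08 in controls. The groups overlapped over most of their ranges, and the difference was -0.15 ± 0.12 (SE). Nr1d1 was not called in either direction on this scale, and was called higher on the spike-in scale (0.71).

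Dbp, a PAR bZIP activator driven directly by the ARNTL complex, was higher in CUS. Its brightest probe read 4.03, 4.40, 4.57, 4.74, 4.18 and 4.83 in CUS rats, against 2.47, 3.11, 2.72, 3.39, 4.06 and 3.80 in controls. CUS rat 1 lay just below control rat 5, and the other CUS rats lay above all controls, for a difference of 1.20 ± 0.26 (SE) or 2.29-fold. The other Dbp probes gave 1.09 and 1.15, and the 3 probes rose and dipped together from rat to rat (r = 0.99 for each pair over 12 group-centred arrays). The calls of all 3 Dbp probes stood under every alternative run on them.

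**Figure D3:**
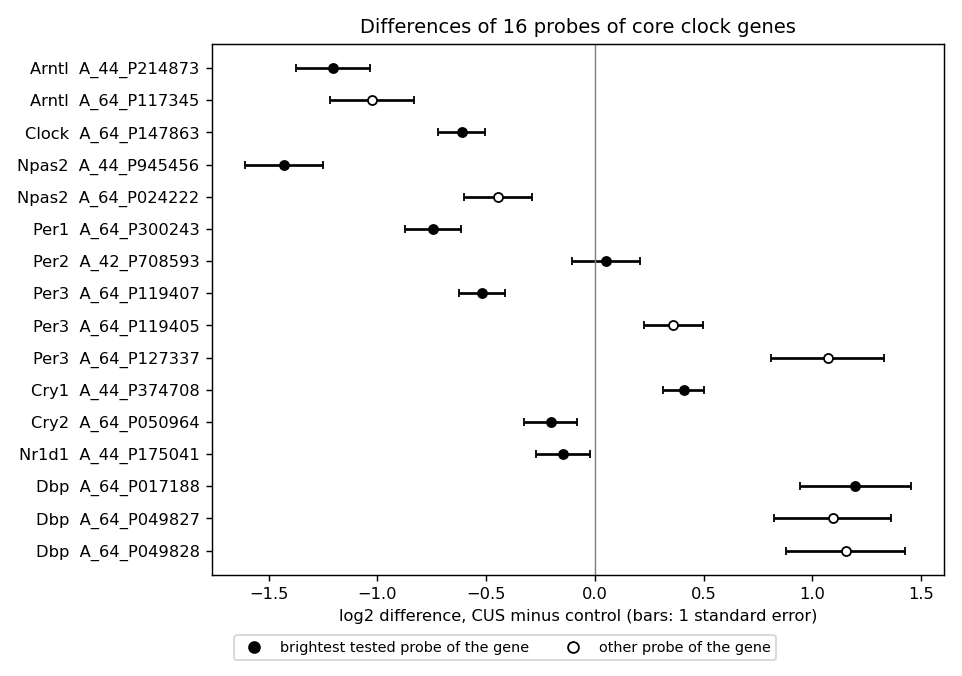
The difference in log2 signal, CUS minus control, is plotted for the 16 tested probes of the core clock genes, with bars of 1 standard error, filled points for the brightest probe of a gene and open points for its other probes. Arntl and Npas2 lie left of 0, the 3 Dbp probes lie right of it between 1.09 and 1.20, and the 3 Per3 probes lie on both sides.

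The comparison of activators with the genes they drive can be made within each array, where the scale of the array cancels. Dbp minus Arntl was 6.26 to 7.47 log2 units in CUS rats and 3.38 to 5.72 in controls, so the ratio of the 2 signals was higher in every CUS rat than in any control. Cry1 minus Arntl was 0.35 to 1.09 in CUS and -1.09 to -0.28 in controls. A factor common to an array cancels in these ratios, but the background correction does not. With normexp, Cry1 differed by 0.12 and Arntl by -0.97. Only Dbp and Cry1, both called higher, were set against Arntl. The genes were chosen with their differences known, so the ratios are a description. Not all targets stood apart from the activators, for Per1 was lower along with Arntl. Among the repressor genes, Cry1 minus Per1 was 2.42 to 2.65 in CUS and 1.00 to 1.78 in controls. Per2 minus Per1 was 2.82 to 3.07 in CUS and 1.10 to 2.85 in controls, which overlapped. These ratios too are a description. Of the 7 genes that the activators drive, 2 were called higher, 2 lower by the brightest probe and 3 were not called. Over all genes 24.1% were called higher and 25.9% lower, so these counts are near the background and nothing is read from them.

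Promoter sequences were searched for the elements of the loop, and 1 window each is printed for Arntl, Nr1d1 and Per2 to show the 4 kinds of element that were found. In RefSeq promoters on build GRCr8, running from 250 bases before to 50 after each start, 9 of the 10 genes had an entry and Cry1 had none. Both strands were searched for the E-box CACGTG, the E′-box CACGTT, the D-box TTATGTAA and the RORE cores TAGGTCA and TGGGTCA. These occurred in 6.42%, 4.83%, 0.893%, 2.63% and 4.09% of 33469 promoters. Capitals mark the match, and each window is given in the direction of its gene.
Arntl, chr1:176766228-176766327, plus strand, RORE: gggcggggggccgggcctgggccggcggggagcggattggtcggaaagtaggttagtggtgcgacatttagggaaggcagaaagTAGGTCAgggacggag
Nr1d1, chr10:84229585-84229684, minus strand, E-box: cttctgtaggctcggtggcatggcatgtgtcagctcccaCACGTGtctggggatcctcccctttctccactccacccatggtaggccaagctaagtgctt
Per2, chr9:99497034-99497203, minus strand, D-box and E′-box: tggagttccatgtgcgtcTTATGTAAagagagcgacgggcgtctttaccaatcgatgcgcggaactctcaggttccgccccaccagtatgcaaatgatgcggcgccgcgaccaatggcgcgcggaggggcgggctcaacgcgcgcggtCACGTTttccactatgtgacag

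The RORE stood in 1 of the 9 genes (Arntl), the E-box in 1 (Nr1d1) and the E′-box in 3 (Per2, Cry2 and Nr1d1). No match was found in the windows of Dbp, Per1, Per3, Clock or Npas2, which says only that these letters are not there. Per2 and Nr1d1, with matches, were not called, and Arntl, with its RORE, was lower in CUS.

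The rats of a group varied among themselves, which the choice of the genes did not use. The pooled SD of the brightest Dbp probe (0.486) exceeded that of 85.4% of tested probes, while that of Cry1 (0.140) exceeded 13.9%. For Dbp, the SD was 0.31 in CUS and 0.61 in controls, and for Per2 it was 0.12 in CUS and 0.38 in controls. The SD was larger in controls for 7 of the 10 genes, against 75.6% of all 17405 genes, so a wider control group was general to the arrays.

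Among controls, the Arntl signal ran with the signals of its partners and against that of Dbp, but none of these relations passed an adjusted p under 0.05 on the main scale. Those with Npas2 and Dbp also depended on the processing. Across the 6 controls, Arntl correlated with Npas2 at r = 0.98 (exact permutation p = 0.0028, adjusted p = 0.05; rho = 0.94, p = 0.0167, adjusted p = 0.15) and with Clock at r = 0.95 (exact permutation p = 0.0083, adjusted p = 0.0667; rho = 0.94, p = 0.0167, adjusted p = 0.15). Both held without the 2 rats farthest from the Arntl median, at r = 0.94 each. With Dbp the relation ran the other way, at r = -0.85 (exact permutation p = 0.0347, adjusted p = 0.156; rho = -0.89, p = 0.0333, adjusted p = 0.15), or -0.67 without the 2 farthest rats, but 0.48 on the spike-in scale. There the relation with Npas2 was r = 0.90, or -0.63 without the 2 farthest rats, so it rested on them, and that with Clock was 0.85, or 0.89 without them. With the mean of a gene's probes, the relation with Npas2 was r = 0.71 (exact permutation p = 0.106, adjusted p = 0.367), or 0.28 without the 2 farthest rats. That with Clock was then 0.96, or 0.98 without them. On the main scale Arntl was highest in controls 3 and 1 and lowest in control 5, where Dbp was highest.

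Across the 6 CUS rats, Arntl correlated with Npas2 at r = 0.74 (exact permutation p = 0.107, adjusted p = 0.385; rho = 0.83, p = 0.0583, adjusted p = 0.175), or 0.73 without the 2 farthest rats. With Clock it was r = 0.22 (exact permutation p = 0.685, adjusted p = 0.725; rho = 0.54, p = 0.297, adjusted p = 0.535), or 0.38 without them, and with Dbp r = -0.50 (exact permutation p = 0.321, adjusted p = 0.573; rho = -0.60, p = 0.242, adjusted p = 0.535), or -0.17 without them. The brightest Per3 probe ran against Arntl in CUS, at r = -0.95 (exact permutation p = 0.0111, adjusted p = 0.0667; rho = -0.89, p = 0.0333, adjusted p = 0.15), or -0.93 without the 2 farthest rats, but 0.10 on the spike-in scale. In controls the same pair gave r = 0.61 (exact permutation p = 0.201, adjusted p = 0.518; rho = 0.66, p = 0.175, adjusted p = 0.45), or -0.39 without the 2 farthest rats, so that value rested on them. None of the 18 relations of Arntl passed an adjusted p under 0.05. All tests were two-sided, and the smallest p that 720 pairings can give is 0.0014, or 0.025 after adjustment for 1 relation alone. The difference between the groups in any of these relations was not tested.

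**Figure D4:**
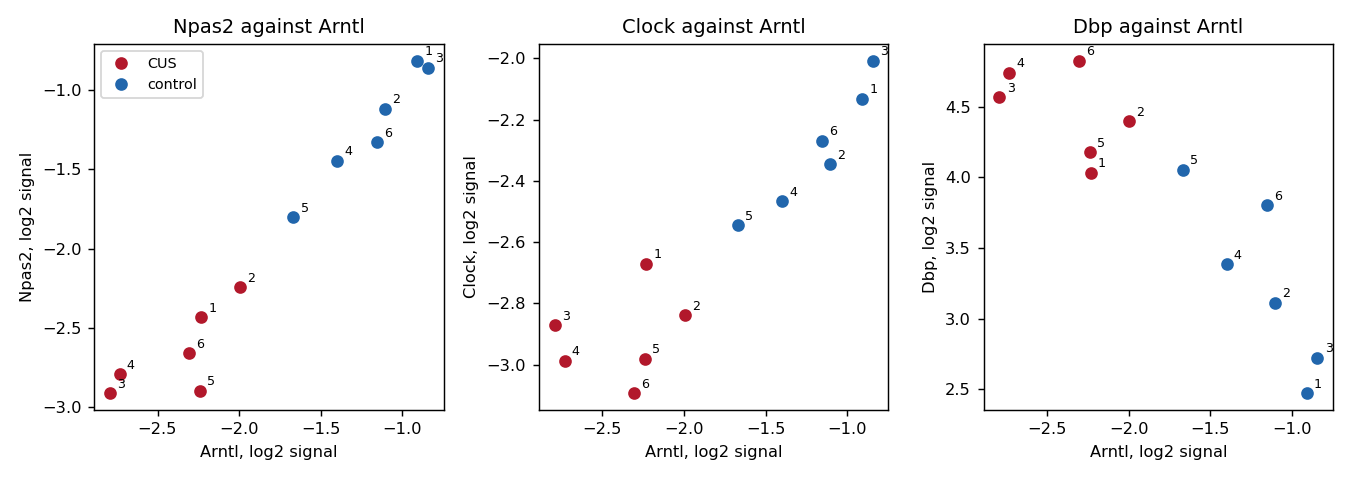
The log2 signals of Npas2, Clock and Dbp (vertical axes) are plotted against that of Arntl (horizontal axis), all relative to the 75th percentile of the array, for CUS rats (red) and control rats (blue) numbered by replicate. Control rats line up with r = 0.98, 0.95 and -0.85 in the 3 panels, and CUS rats lie at lower Arntl.

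Over the 12 arrays centred on their group means, the 5 genes most like Arntl among 14983 others were Hapln2 (r = 0.88), Npas2 (0.87), RGD1565970 (0.86), A_64_P053968 (0.83), a probe with no gene name here, and Cysrt1 (0.83). Dbp ranked 14960 of 14983 on that list, with r = -0.69, near its opposite end. The 5 most like Dbp were Svbp (0.91), Fen1 (0.90), Ccdc115 (0.90), Stx7 (0.88) and Apbb3 (0.88), and Dbp correlated at -0.76 with both Clock and Npas2. These values describe the same 12 arrays, which share slide and scale within a group, and carry no test.

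The wider clock pathway was read from 24 further genes, of which 23 had a probe and 21 were tested. These genes were also chosen with earlier results of these data known. Their adjusted p-values only sort them and are no evidence of a change. In CUS, 6 were higher, 1 was lower and 14 were not called, where 24.1% of all genes were higher and 25.9% lower, so the count higher is near the background. Their median difference was 0.30, against -0.026 over all genes. Among outputs of the clock, Noct, a rhythmic phosphatase first described as a deadenylase, rose most. It read 2.06 to 3.21 in CUS and -0.023 to 1.60 in controls, a difference of 1.75 ± 0.25 (SE, n = 6 each) or 3.37-fold (limma adjusted p = 0.00019). Nampt, the rate-limiting enzyme of NAD salvage, rose by 0.73 ± 0.13 (limma adjusted p = 0.000653), with 0.55 to 0.99 in CUS and -0.17 to 0.48 in controls. Sirt1, an NAD-dependent deacetylase that acts on the clock proteins, was lower in CUS, with -3.78 to -3.23 in CUS and -2.64 to -1.84 in controls. Its difference was -1.43 ± 0.14 (limma adjusted p = 1.36e-05), and like Noct and Nampt it showed no overlap.

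Wee1, a cell cycle kinase under clock control, rose by 0.33 ± 0.094 (limma adjusted p = 0.0127). Of the PAR bZIP relatives of Dbp, Tef rose by 0.39 ± 0.12 (limma adjusted p = 0.0188) and Hlf was too dim to be tested. Nfil3, which opposes Dbp at D-boxes, was not called (0.66 ± 0.38). The kinases and ubiquitin ligases that mark PER and CRY proteins for breakdown shifted little, and 2 of 5 rose, namely Gsk3b by 0.25 ± 0.075 (limma adjusted p = 0.0163) and Btrc by 0.30 ± 0.095 (limma adjusted p = 0.0208). The Btrc call was lost without CUS replicate 4 (adjusted p = 0.0504). Csnk1d was not called by its brightest probe (0.075 ± 0.087). Its second probe was called higher (0.35 ± 0.12, limma adjusted p = 0.0288), a call that 6 alternatives removed. Neither of the 2 tested receptors that bind ROREs (Nr1d2 and Rora) was called, nor was any of Arntl2, Bhlhe40, Bhlhe41, Timeless and Ciart. Rora was called higher with quantile normalization (0.52) and array weights (0.44), and Arntl2, at 0.39 with a limma adjusted p of 0.0507, was called higher under 9 alternatives. Timeless was called lower with array weights (-0.60), with normexp (-0.54) and without control replicate 3 (-0.63), and Nr1d2 was called lower with normexp (-0.31). Bhlhe41 went both ways, higher with quantile normalization (0.79) and lower with normexp (-0.48). On the spike-in scale 19 of the 21 genes were called higher, the 6 above among them.

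**Figure D5:**
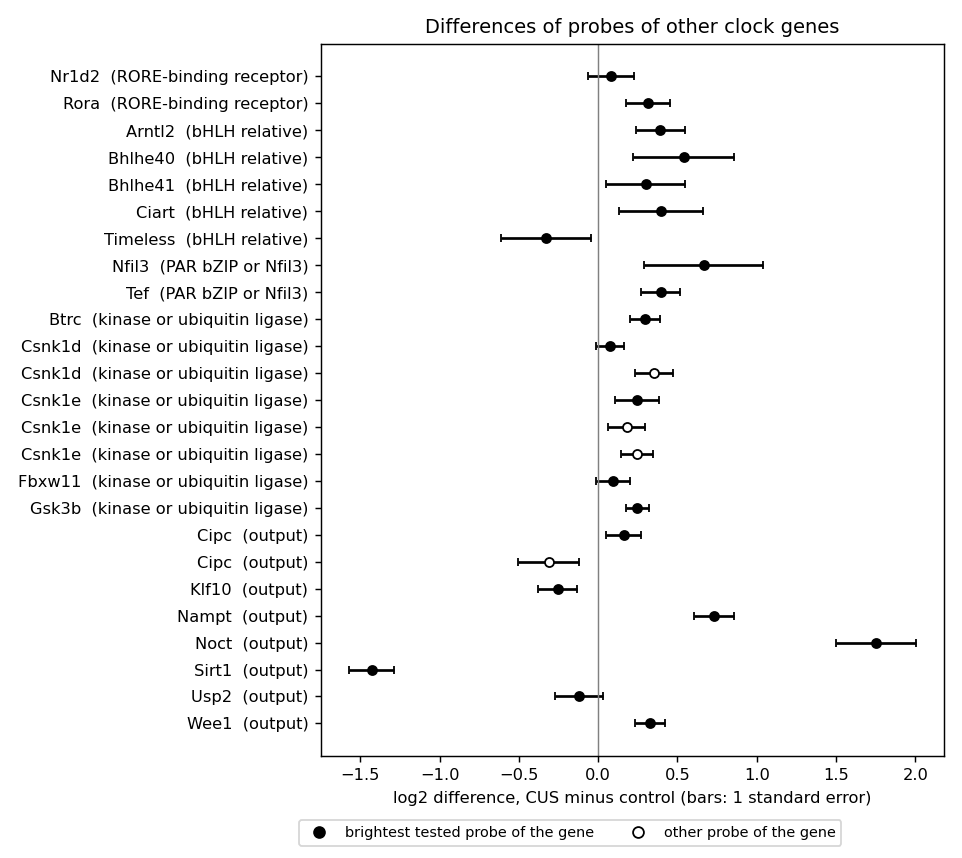
The difference in log2 signal, CUS minus control, is plotted for the tested probes of 21 further clock genes grouped by role, with bars of 1 standard error, filled points for the brightest probe of a gene and open points for its other probes. Noct at 1.75 and Sirt1 at -1.43 stand apart from the rest, most of which lie between 0 and 0.7. The heading bHLH relative stands for Arntl2, Bhlhe40, Bhlhe41, Timeless and Ciart as a set, and makes no statement about each protein.

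Transcripts of other cell types differed between the groups along with the clock genes, and their part in these differences was not tested. In bulk RNA, fewer cells of a type and less RNA per cell cannot be told apart. All 4 smooth muscle markers and 3 of 5 endothelial markers were lower in CUS, with mean levels of -1.73 to -0.31 in CUS and -1.38 to 1.41 in controls for smooth muscle. All 4 red blood cell markers, 4 of 5 mast cell markers and 2 of 4 macrophage markers were higher in CUS. The other macrophage markers, Cd68 (-0.56) and Adgre1 (0.65), leaned in opposite directions and were not called. Red blood cell markers averaged 5.68 to 6.47 in CUS and 0.34 to 1.41 in controls. Of 9 genes induced by tissue dissociation, Fos, Atf3 and Zfp36 were higher and none was lower. Of the adipocyte markers, 3 were higher and 1 was lower. Over all genes 24.1% were called higher and 25.9% lower, so nothing is read from the counts of macrophage, dissociation and adipocyte genes.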

How the data were processed

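RNA of epididymal adipocytes of 6 CUS and 6 control rats was read on 1-colour Agilent arrays, 1 per rat, and groups follow the labels of the deposited arrays. The authors deposited the scanner output, whose intensity values had been background-subtracted by Agilent Feature Extraction 10.7.3.1 and, per the file headers, were not normalized between arrays. A table of quantile normalized intensities, deposited by the authors on a linear scale, served as an alternative. The study's methods name an exon array, whereas the headers of the files give a gene expression array, and they name dChip. Of 62976 spots per array, 58717 were not controls (30367 probes), and probe positions are on rn4. Intensity at the 75th percentile was 541 to 627 in CUS and 230 to 400 in controls. The number of arrays limits the precision.

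After removal of outlier spots, the mean intensity of each probe's spots was taken, and its log2 was expressed against the array's 75th percentile. The 19721 probes (17405 genes) that 6 or more of 12 arrays read well above background entered limma 3.58.1 in R 4.3.3, two-sided, without covariates, and p-values were adjusted by the Benjamini-Hochberg method across this whole set. On simulated data, limma called 21 of 66 probes changed by 0.5 log2 units, 54 of 66 changed by 1 and 67 of 68 changed by 2. Relations within a group used an exact permutation test over pairings (SciPy 1.17.1).

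The core clock genes, the 24 further clock genes and the marker lists were chosen with earlier results of these data known. Named genes are all 10 core genes, every further clock gene that was called, and the 5 genes most like Arntl and Dbp. The other genes named were chosen after their values were seen. Further genes of the clock pathway are not reported here. Same-numbered arrays of the 2 groups were checked for shared deviations and did not pair. Alternatives were quantile normalization, the deposited value table, spike-in scaling, normexp with offset 50, other filters, the mean of a gene's probes, trend and robust variances, array weights, each array left out, the replicate number as a block, and the methods' t-test with a fold of 2.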

Additional observations from a re-analysis of the deposited data

Results flagged for a closer look

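In each group of 6 arrays, the 16 tested probes of the core clock genes and the brightest probes of the 7 further clock genes that were called were screened for an array far from the others, by Dixon's test of its gap to the nearest one. Of 46 groups, 2 were marked, and chance marks about 1 in 20. Sirt1 in CUS replicate 5 was highest of its group at -3.23, with the next CUS rat at -3.63, and still lay below every control. Wee1 in control replicate 4 was lowest of its group at -0.0077, with the next control rat at 0.33. The cause was not tested.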

How the results depend on the processing

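Counts of core clock genes stood at 2 higher and 5 lower in CUS with quantile normalization, the deposited value table, other filters, other variance models and each array left out. With spike-in scaling, under which the median probe moved by 0.84, they were 5 higher and 1 lower. With normexp, under which it moved by -0.18, 1 was higher and 6 were lower. The methods' t-test with a fold of 2 called 1 higher and 2 lower, both unadjusted and after Benjamini-Hochberg adjustment; over all 17405 genes it called 554 higher and 1533 lower unadjusted, and 547 and 1443 adjusted. The mean of a gene's probes gave 2 higher and 4 lower.

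Differences changed sign with spike-in scaling for Clock A_64_P147863 (0.24), Npas2 A_64_P024222 (0.41), Per1 A_64_P300243 (0.11) and Per3 A_64_P119407 (0.33), and for Cry2 (0.65) and Nr1d1 (0.71), which were not called before and then were; and with normexp for Per3 A_64_P119405 (-0.19) and A_64_P127337 (-0.26). Per2, called in neither case, turned negative with normexp (-0.071) and array weights (-0.079). The cause was not tested.

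Of the further clock genes, 19 were higher with spike-in scaling and 1 with the methods' t-test, unadjusted or adjusted, against 6. With quantile normalization, the deposited value table or array weights 9 were higher. Lower were 2 with quantile normalization, the deposited value table, no filter on dim probes or array weights, and 5 with normexp, against 1. With 1 array left out, 5 to 8 were higher and 1 to 2 lower, and 2 were lower without CUS replicate 2 or without control replicate 3. Relations of Arntl past an adjusted p of 0.05 numbered 2 with normexp (Npas2 in controls, Per3 in CUS), 1 with the mean of probes (Clock in controls) and 0 otherwise, also with any array left out.

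Arrays of the same number deviated together at r of -0.19 to 0.43, and 2 of 6 correlated best with their own number. With the replicate block, 2 core clock genes were higher and 5 lower, and 6 and 1 of the further genes. The block took the call of Btrc (adjusted p = 0.0542) and gave one to Arntl2 (0.0193). A_64_P127337 of Per3 was dim, as were the untested Clock, Hlf and Rorb probes.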
